A study of Mus musculus with 8 samples.

Results

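Mouse peritoneal macrophages were exposed to a high dose of LECT2 (5 µg/ml) for 3.5 h and compared with cells given none. The measurements came from 2 of the 8 arrays of the series, chosen by their labelled dose and time alone, and each array carried the LECT2 sample and a control sample in different dyes. The other arrays, again 2 to a group, held macrophages given the high dose for 48 h, the low dose (0.5 µg/ml) for 3.5 h and the low dose for 48 h, each beside a control without LECT2. All cells were primary peritoneal macrophages from mice of no altered genotype named in the labels, kept in low-glucose DMEM with fetal bovine serum, and the age and strain are not given in the sources used here. The arrays of each group are named as biological replicates, and whether different groups shared mice was not tested. The titles put the early time at 3.5 h, and the labels of the channels put it at 3 h.

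LECT2 (leukocyte cell-derived chemotaxin 2) is a protein secreted mainly by the liver and reported to bind CD209a, MET and TIE1 on cells. Macrophages that meet a microbial or inflammatory signal switch on NF-kB, a family of transcription factors held inactive by inhibitor proteins, and with it cytokines, chemokines and the inhibitors themselves. Many stimuli also lead to autocrine interferon, which acts through STAT proteins on genes whose promoters carry interferon response elements.

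All values are log2 ratios of LECT2 over control, so 1 unit is a doubling, and a positive value means higher with LECT2. A gene was called when limma gave an adjusted p (Benjamini-Hochberg over 26148 genes) under 0.05 and both arrays lay on the same side of 0. LECT2 was in the green dye (Cy3) and control in the red dye (Cy5) on every array with no dye swap, so for any gene the dye and LECT2 cannot be told apart. Of the non-control spots, 56.4% and 69.9% were above background in the LECT2 channel of replicates 1 and 2, against 63.6% and 82.3% in the control channel. These shares are from the scanner files that best match the 2 columns, which are recorded under other samples, as set out next.

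The deposited ratios and the scanner files are linked differently, which bears on every value here. In 7 of the 8 deposited columns the best-matching scanner file is recorded under another sample. Over 31615 probes the high-dose 3.5 h column of replicate 1 followed a file recorded under the low dose at 48 h (r = 0.97) more closely than its own file (r = 0.59). The column of replicate 2 followed a file recorded under the high dose at 48 h (r = 0.94) more closely than its own (r = 0.29). The deposited columns were used here for the ratios. What is said of single genes being above background, and each fold given as at least a value, is from the matched files instead. With the scanner files matched to the columns by these ratios 8210 genes were called, and with the files as recorded 0 were called by limma (2865 at an unadjusted p under 0.05), where the deposited columns gave 5724 (9750 at an unadjusted p under 0.05). Which of the links is right was not tested.

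The high dose at 3.5 h raised 2661 genes and lowered 3063, which were 10.2% and 11.7% of the genes tested. The median of all genes was -0.03, and 565 of the genes that rose and 451 of those that fell changed by more than 2 log2 units. Ratios of the 2 arrays correlated across genes at r = 0.72, and genes are not independent replicates. The median standard error was 0.28, and with 2 arrays in the group the number of arrays limits the precision. Centring each column on its median changed the split to 1850 higher and 4202 lower, with the median of all genes at -0.21, and median centring of the matched scanner files gave 2924 higher and 8842 lower with the median of all genes at -0.25. The direction of a gene near 0 therefore depends on the scaling. The calls also depend on both arrays, with 901 genes called without replicate 1 and 2442 without replicate 2. Among the genes named here, the calls of Aim2, Cd209a, Csf1r, Dusp3, Lpl, Mmp12, Ndufv2, Socs5, Tyrobp, U90926 and Zfp36 were lost both with no filter on dim probes and with only the 3.5 h arrays in the fit. Those of Fos and Fpr2 were lost with no filter, and those of Cd180, Hk2, Mycl, Pla2g4a, Sqstm1 and Zc3h12c with only the 3.5 h arrays.

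**Figure D1:**
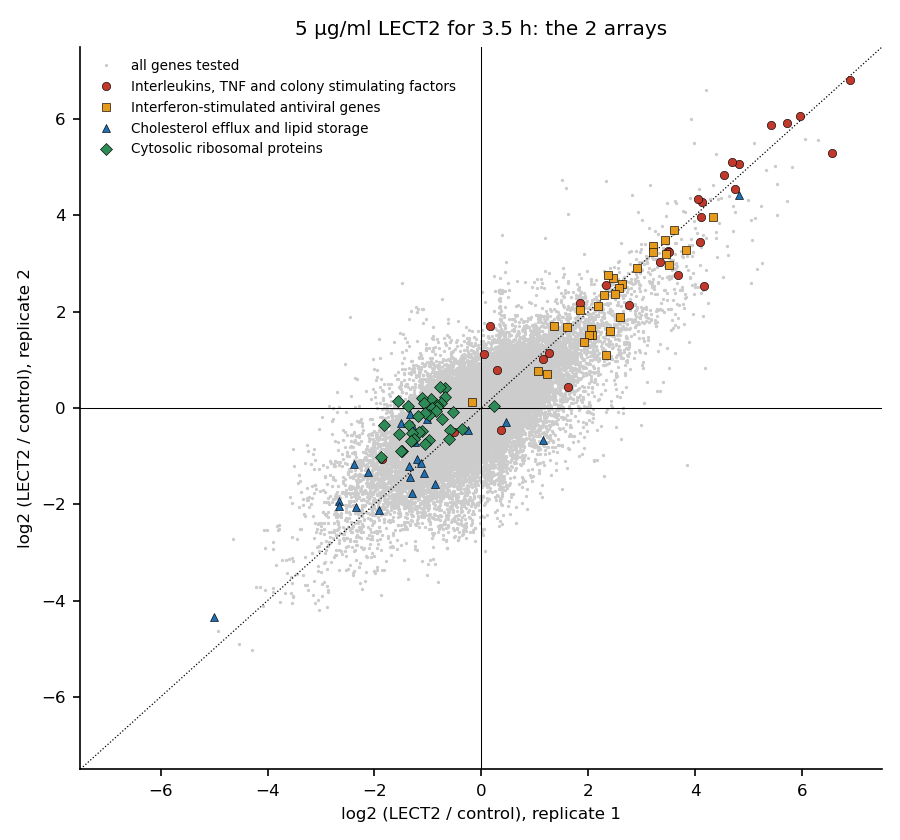
Log2 ratio of LECT2 over control on replicate 1 (x axis) and replicate 2 (y axis) for the high dose at 3.5 h, 1 point per gene, with 4 gene lists in colour. The interleukin and interferon-stimulated lists lie along the dotted line of equal values in the upper right, the cholesterol efflux list lies mostly in the lower left, and the ribosomal protein list lies lower on replicate 1 (median -1.06) than on replicate 2 (median -0.16).

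The macrophage label was set against 10 marker genes. Of these, 9 were tested, and all 9 were well above background in both channels of both arrays. Of the 9, 1 rose, 4 fell and 4 were not called (median -0.09). Cd14, a co-receptor for lipopolysaccharide, read 3.36 and 2.19 in replicates 1 and 2 and rose (mean 2.77 ± 0.65 SE, adjusted p = 0.0232). Lyz2, which encodes lysozyme, fell with -1.82 and -2.21, and Csf1r, the receptor for the macrophage growth factor CSF1, fell with -1.49 and -0.58. Tyrobp, a signalling adaptor of myeloid receptors, fell with -1.89 and -0.74. On the 2 arrays, markers of other cells read as follows, beside 10.2% of all genes tested that rose and 11.7% that fell. For dendritic cells 4 of 12 markers rose and 2 fell (median 0.90). Zbtb46 at 3.51 and 3.12 and Xcr1 at 2.13 and 2.10 were among those that rose, and Cd209a (mean -1.64) among those that fell. For T and NK cells 3 of 15 rose and none fell (median 0.63), and Gzmb, which encodes granzyme B, read 3.47 and 2.25 without passing the test (adjusted p = 0.0652, and 0.00293 with matched scanner files after loess). That setting called 8210 genes where the deposited columns gave 5724, and its files were picked to follow these columns. It is therefore no separate check, here or for the uncalled genes below that are given with it. For B cells 2 of 9 rose (median 0.44), for red blood cells 2 of 5 rose (median 0.93), and for neutrophils 1 of 8 rose and 1 fell (median 0.31). The per-array medians parted for neutrophil (-0.07 and 0.48), mast cell (-0.96 and 0.0074) and mesothelial and fibroblast markers (-0.41 and -1.14). Of the 5 eosinophil markers none was called (median -0.0038), of the 8 mast cell markers only Hdc rose (median -0.45), and of the 14 mesothelial and fibroblast markers 1 rose and 3 fell (median -0.75). Fewer cells of a type and less RNA per cell cannot be told apart in these bulk samples, and the part of such cells in the results below was not tested.

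Short stretches of promoter are shown for 6 genes from the cytokine, chemokine, NF-kB and interferon lists. From each list the gene with the largest rise whose window holds a match upstream of the start was taken. The next largest rises filled the rest, with at most 2 genes per list. Genes of a single chromosome were left out of this choice. The stretches are from RefSeq (GRCm38.p6), 5′ to 3′ on the strand of the gene, and capitals mark the match. Nfkbia holds 2 upstream matches in its window, and the one farther from the start is shown. The NF-kB motif searched was GGNNTTTCC and the interferon response motif GAAANNGAA, on both strands, where N is any base.
Cxcl3, chr5:90786004-90786063, plus strand, NF-kB match 72 bases upstream of the start: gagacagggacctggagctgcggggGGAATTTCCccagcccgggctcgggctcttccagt
Cxcl10, chr5:92349013-92349072, minus strand, NF-kB match 158 bases upstream: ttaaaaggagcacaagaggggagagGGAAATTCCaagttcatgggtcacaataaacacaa
Il6, chr5:30013046-30013105, plus strand, NF-kB match 43 bases upstream: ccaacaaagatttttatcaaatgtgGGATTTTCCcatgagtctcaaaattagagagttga
Il1rn, chr2:24345296-24345355, plus strand, NF-kB match 50 bases upstream in 1 of its 3 windows: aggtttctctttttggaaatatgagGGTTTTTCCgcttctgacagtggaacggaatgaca
Nfkbia, chr12:55492791-55492850, minus strand, NF-kB match 178 bases upstream: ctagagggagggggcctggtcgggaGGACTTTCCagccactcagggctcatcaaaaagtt
Isg15, chr4:156200862-156200921, minus strand, 3 overlapping interferon response matches from 78 bases upstream: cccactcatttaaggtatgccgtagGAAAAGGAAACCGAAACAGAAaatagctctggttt

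Windows of 300 bases (250 before to 50 after a start) were at hand for 13308 of the 16754 named genes tested. The NF-kB motif was in a window of 6.7% of all these genes. It was in 5 of the 13 raised cytokine genes with a window (38.5%), in 5 of 9 raised chemokine genes (55.6%) and in 8 of 17 raised genes of the NF-kB feedback list (47.1%). The interferon response motif was in 9.05% of all genes, in 13 of 21 raised interferon-stimulated genes (61.9%) and in 9 of 10 raised genes of the guanylate-binding protein list (90.0%). Over all tested members with a window, raised or not, the NF-kB motif was in 33.3% of the cytokine list, 30.0% of the chemokine list and 40.9% of the NF-kB list, and the interferon motif in 60.9% of the interferon-stimulated and 90.0% of the guanylate-binding protein list. Of all genes called higher, 8.61% held the NF-kB motif and 12.4% the interferon motif, against 6.29% and 7.94% of all genes called lower. Neither motif was in a window of the 7 lowered genes of cholesterol efflux and lipid storage that had one. Among ribosomal protein genes the interferon motif was in 3 of the 5 lowered genes with a window (60%) and in 7 of 25 of all tested (28.0%). These shares are descriptions, and a match is not shown to be a site of binding.

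Secreted cytokines were prominent among the largest rises. Of 30 tested genes for interleukins, TNF relatives and colony stimulating factors 21 rose and 1 fell, with a median of 3.36. The median was 3.60 on replicate 1 and 3.14 on replicate 2. Csf3, which encodes the granulocyte growth factor G-CSF, had 6.89 and 6.82 and rose most of all named genes (116-fold, adjusted p = 0.000578). Lif, a cytokine of the IL-6 family, had 5.42 and 5.88 (50.3-fold, adjusted p = 0.000508). Il27, which encodes a subunit of a cytokine acting on T cells, had 4.83 and 5.07 (30.9-fold, adjusted p = 0.000279). In these genes the arrays lay within 0.5 of each other and far from 0.

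Members of the IL-1 family moved on both sides of the signal. Il1a had 6.57 and 5.30, and the agonists Il1f6 and Il1f9 had 4.75 and 4.55, and 4.55 and 4.85. Il1rn, the antagonist that blocks the IL-1 receptor, rose with 4.17 and 2.54 (10.2-fold, adjusted p = 0.00409). Il33, another IL-1 relative, read 2.77 and 2.14 and missed the threshold (adjusted p = 0.0517, and 0.000584 with matched scanner files after loess). Il12a, a subunit of IL-12, had 4.14 and 4.28 (18.5-fold), and Il6 had 4.09 and 3.44 (13.6-fold). Csf2, which encodes GM-CSF, had 4.06 and 4.34 (18.4-fold). Csf1, the growth factor that maintains macrophages, read -0.52 and -0.50 and was not called (adjusted p = 0.124). Tnfsf13b, which encodes the B-cell survival factor BAFF, had -1.85 and -1.06 and was the member that fell (adjusted p = 0.00929).

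Il17a, the cytokine best known from T helper cells, and Areg, an EGF receptor ligand, were not well above background in the control channel of either array. They can be given only as at least 5.02-fold and at least 4.18-fold higher with LECT2. This bound takes, per array, the faintest probe counted as above background in place of the dim channel. Its levels are those of the matched scanner files after loess and a scaling between arrays, not of the deposited columns. The T-cell marker list beside Il17a is given above.

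Of 27 chemokine genes 14 rose and 1 fell (median 1.46). Ligands for neutrophil receptors were among them, with Cxcl3 at 5.49 and 5.03 (38.4-fold, adjusted p = 0.0314) and Cxcl2 at 3.45 and 3.23 (10.1-fold, adjusted p = 0.00694). The CC chemokines Ccl3, Ccl4 and Ccl5 rose to a like extent. Ccl4 had 3.81 and 4.08, Ccl3 had 3.26 and 3.67, and Ccl5 had 3.32 and 3.61. Cxcl10, a ligand for CXCR3 on T cells, had 4.71 and 4.19 (21.9-fold). Cxcl14 was the member that fell, with -1.68 and -0.96, and Ccl6 read -1.03 and -1.22 without passing the test (adjusted p = 0.0968, and 0.0431 with matched scanner files after loess).

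**Figure D2:**
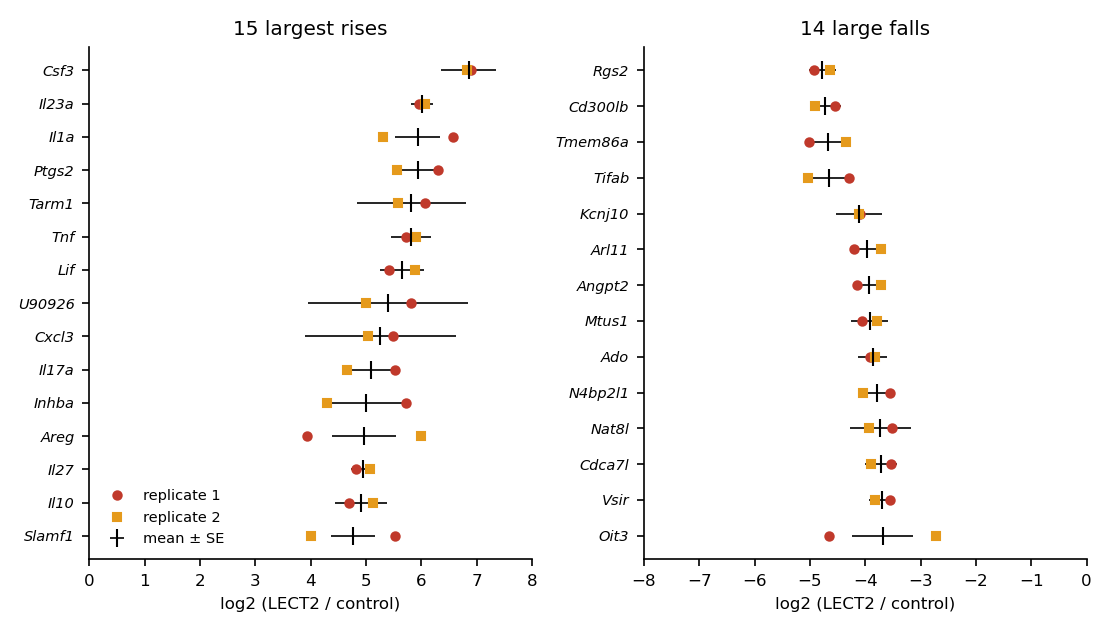
Log2 ratio of LECT2 over control for the named genes with the largest called rises (left, 15 genes) and falls (right, 14 genes) at the high dose and 3.5 h. Circles and squares are replicates 1 and 2 and bars are the mean ± SE. The SE is widest for U90926 (1.45) and Cxcl3 (1.36).

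Among the 15 largest rises were also genes outside the cytokine list. Tarm1, an activating receptor of myeloid cells, had 6.06 and 5.58 (56.6-fold, adjusted p = 0.00733). Slamf1, a surface receptor of activated immune cells, had 5.53 and 4.0 (27.2-fold, adjusted p = 0.000811), with control above background on 1 of 2 arrays. U90926, a transcript given no role here, had 5.81 and 5.00 (adjusted p = 0.0352). Inhba, a subunit of activin, had 5.72 and 4.29 (adjusted p = 0.00587). The 15 were completed by the cytokines Il10 (4.69 and 5.12), Il23a (5.97 and 6.07) and Tnf (5.72 and 5.91), and by Ptgs2 (6.30 and 5.57).

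NF-kB subunits and the proteins that restrain them rose together. Of 27 tested members 21 rose and 1 fell (median 1.87). Among the inhibitors, Nfkbia had 3.32 and 3.21 (9.63-fold, adjusted p = 0.0013) and Nfkbiz, an atypical nuclear inhibitor protein, had 4.21 and 2.87 (11.6-fold). Tnip1 and Tnip3 partner the ubiquitin-editing enzyme A20, which Tnfaip3 encodes. Tnip1 had 3.21 and 3.09, Tnip3 had 3.97 and 1.95, and Tnfaip3 had 2.66 and 2.35. Traf1, an adaptor of TNF receptors, had 3.43 and 3.31. The subunit genes rose less in log2 terms, Nfkb1 with 2.28 and 2.05 and Rela with 1.44 and 1.37. The deubiquitinases differed, since Cyld read -0.78 and -0.26 without passing the test (adjusted p = 0.276) and Otud1 fell with -1.93 and -1.96 (adjusted p = 0.00448).

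Other feedback genes gave mixed results. Of 28 interferon regulatory factors, STAT and SOCS genes 11 rose and 3 fell. Socs1 (3.57 and 3.07), Cish (3.58 and 2.87) and Socs3 (3.16 and 2.78), which encode inhibitors of cytokine receptor signalling, were the largest of them. Jak2, a kinase of cytokine receptors, had 3.01 and 2.04. Irf2 (-1.15 and -1.36) and Socs5 (-1.08 and -1.32) fell. Of 16 MAP kinase phosphatases and Sprouty proteins 7 rose and 2 fell, led by Dusp16 at 3.29 and 2.93, with Dusp8 at 1.62 and 2.60 and Spry1 at 1.77 and 2.28. Dusp3 fell with -1.29 and -0.81. Of 20 regulators of mRNA decay 4 rose (20%) and 2 fell (10%), beside 10.2% and 11.7% of all genes. Zc3h12a, which encodes the RNase regnase-1, had 1.43 and 1.85, Zc3h12c had 2.88 and 1.82, and Zfp36, which encodes tristetraprolin, had 1.19 and 0.89. The related Zfp36l2 fell with -2.34 and -1.72 (adjusted p = 0.00512).

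Early transcription factors did not move as a block. Of 24 AP-1, Egr and related genes 10 rose and 3 fell (median 0.58). Ier3 had 3.55 and 2.69, Batf2 had 3.33 and 2.73 and Maff had 1.87 and 2.26. Egr2 fell with -3.53 and -2.68 (8.62-fold, adjusted p = 0.00266) and Fos fell with -1.06 and -2.48 (adjusted p = 0.0463). Egr1 read -0.80 on both arrays and was not called (adjusted p = 0.156).

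Interferon-stimulated antiviral genes had the highest share of raised members of any list described. Of 29 tested members 27 rose and none fell (median 2.32), with medians of 2.40 and 2.35 on the 2 arrays. Ifit2, an inhibitor of viral translation, had 4.33 and 3.98 (17.8-fold, adjusted p = 0.000441). Oasl1, a relative of the oligoadenylate synthetases, had 3.61 and 3.69, and Cmpk2, a mitochondrial nucleotide kinase, had 3.83 and 3.28. Isg15, a ubiquitin-like modifier, had 3.45 and 3.49 (11.1-fold). Usp18, the protease that removes ISG15 from proteins, had 2.92 and 2.91. Ifit1 had 3.46 and 3.19. In each of these genes the arrays differed by at most 0.6. Bst2 read 1.23 and 0.70 and was not called (adjusted p = 0.149).

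Guanylate-binding proteins and immunity-related GTPases, which act on pathogen-containing vacuoles, differed between the arrays. Of 16 tested members 10 rose and none fell, with a median of 2.62 on replicate 1 and 1.15 on replicate 2. Tgtp1 had 5.06 and 3.50 (19.4-fold) and Gbp5 had 3.75 and 3.16 (11.0-fold), and these were high on both arrays. Gbp6 read 3.04 and 0.11 (adjusted p = 0.0951) and Gbp8 read 1.13 and -1.85 (adjusted p = 0.761). Neither of these was high on both arrays at this time.

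**Figure D3:**
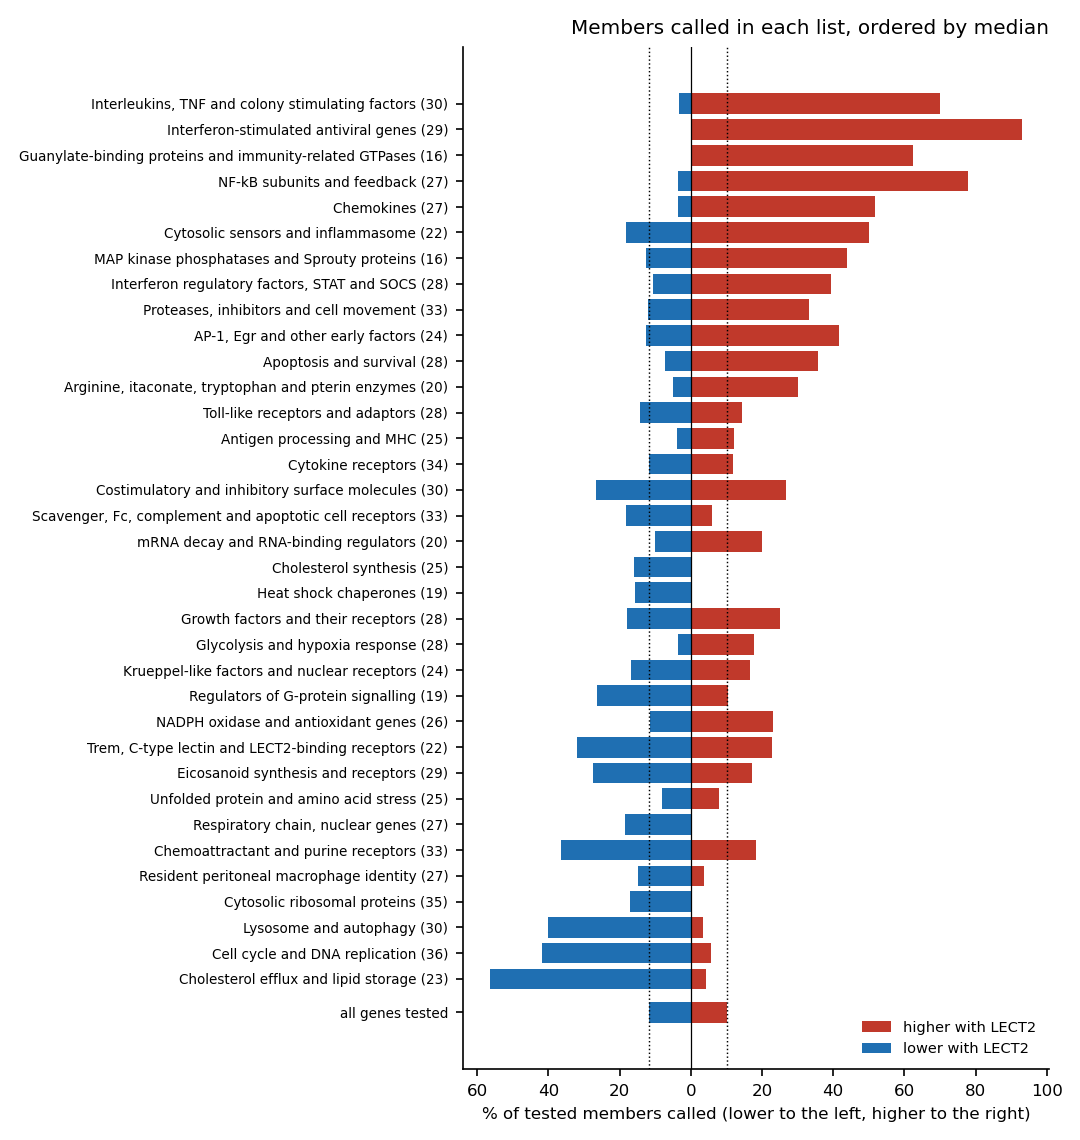
Share of tested members called higher (right, red) and lower (left, blue) in each of 35 gene lists at the high dose and 3.5 h, with the number tested in brackets, ordered by the median of the list. Dotted lines mark the shares over all genes tested, 10.2% higher and 11.7% lower. Interferon-stimulated antiviral genes have the longest bar to the right (93.1%) and cholesterol efflux and lipid storage the longest to the left (56.5%).

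Of 28 Toll-like receptors and adaptors 4 rose and 4 fell (14.3% each way), near the 10.2% and 11.7% of all genes. Besides Cd14, Myd88 (2.74 and 1.84), an adaptor of most Toll-like receptors, Irak3 (2.78 and 1.66), an inhibitory kinase relative, and Tlr2 (2.20 and 1.05) rose. Tlr13, a sensor of bacterial ribosomal RNA, fell with -2.68 and -2.36 (5.74-fold, adjusted p = 0.00109). Cd180 (-1.42 and -1.41) and its partner Ly86 (-1.45 and -1.08), which form a receptor complex related to TLR4, fell too. Of 22 cytosolic sensors and inflammasome genes 11 rose and 4 fell. Nlrp3, an inflammasome sensor, had 4.59 and 3.37, and the viral RNA sensors Ifih1 (3.19 and 2.5) and Dhx58 (2.43 and 2.64) rose. Pycard, the adaptor that links inflammasome sensors to caspase-1, fell with -1.65 and -1.06 (adjusted p = 0.00733), and Aim2, a DNA sensor, fell with -1.80 and -0.67 (adjusted p = 0.0334).

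Genes of prostaglandin and leukotriene synthesis were split. Of 29 eicosanoid genes 5 rose and 8 fell (median -0.34, with 0.02 on replicate 1 and -0.25 on replicate 2). Ptgs2, the inducible cyclooxygenase, had 6.30 and 5.57 (61.1-fold). Ptges, the inducible prostaglandin E synthase, had 1.49 and 1.59, and Pla2g4a, the phospholipase that frees arachidonic acid, had 2.04 and 0.76. These act in sequence towards prostaglandin E2. Ptgs1, the constitutive cyclooxygenase, fell with -1.76 and -1.94 (3.60-fold, adjusted p = 0.00611). Hpgds, the haematopoietic prostaglandin D synthase, had -2.87 and -3.77 (9.98-fold lower, adjusted p = 0.00669). Tbxas1, the thromboxane synthase, had -1.18 and -1.19, and Lta4h, an enzyme of leukotriene B4 synthesis, had -1.60 and -1.48. The prostaglandin E2 receptor Ptger2 fell with -1.84 and -2.11.

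Receptors that steer movement fell more often than they rose. Of 33 chemoattractant and purine receptors 6 rose and 12 fell, a larger share lower (36.4%) than among all genes (11.7%). The list median was -0.44, with 0.02 on replicate 1 and -0.37 on replicate 2. Adora2b, an adenosine receptor, had 5.13 and 3.94 (23.1-fold, adjusted p = 0.00432), and Fpr2, a formyl peptide receptor, had 3.72 and 2.46 (adjusted p = 0.0454). Ccrl2, a receptor that presents chemerin, had 3.16 and 2.59. Fpr1 read 3.91 and 2.71 and was not called (adjusted p = 0.0759, and 0.0366 with matched scanner files after loess). C3ar1, a complement receptor, had -2.90 and -2.94 (7.58-fold lower, adjusted p = 0.000855). Cxcr4 (-2.34 and -2.84) and S1pr1 (-2.24 and -2.49), receptors for CXCL12 and sphingosine 1-phosphate, fell. P2ry12, an ADP receptor, was at least 3.49-fold lower, since LECT2 samples were not well above background on either array. Regulators of G-protein signalling included the largest fall of all named genes, Rgs2, with -4.92 and -4.63 (27.4-fold lower, adjusted p = 0.000441). Rgs18 was at least 5.11-fold lower. Of the 19 members 5 fell (26.3%) and 2 rose (10.5%), the share raised being near the 10.2% of all genes.

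Surface molecules that tune T cells and myeloid cells were also split, with 8 of 30 raised and 8 lowered. Both shares were 26.7%, beside 10.2% of all genes higher and 11.7% lower. Cd40 (3.11 and 3.04), Icosl (1.86 and 2.41) and Cd274 (2.68 and 1.37), which encodes PD-L1, rose. Cd300lb, an activating CD300 receptor, had -4.54 and -4.90 (26.4-fold lower), and Vsir, which encodes the checkpoint protein VISTA, had -3.56 and -3.83 (13-fold lower). Cd200r1, an inhibitory receptor, fell with -2.0 and -3.38. Both directions thus held stimulating and restraining molecules.

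Of 33 genes for proteases, their inhibitors and cell movement 11 rose and 4 fell. Mmp3, a matrix metalloproteinase, had 4.39 and 3.54 with control above background on 1 of 2 arrays. The adhesion molecules Icam1 (3.61 and 2.75) and Vcam1 (3.43 and 2.45) rose, and Mmp12, the macrophage elastase, fell with -1.17 and -1.88 (adjusted p = 0.0374). Of 28 apoptosis and survival genes 10 rose (35.7%) and 2 fell (7.14%), and of 28 growth factors and receptors 7 rose (25%) and 5 fell (17.9%). The shares over all genes were 10.2% higher and 11.7% lower. Edn1, the precursor of endothelin-1, had 4.49 and 4.36 (21.5-fold), and Angpt2, an antagonist ligand of the receptor TIE2, was at least 5.27-fold lower.

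Single enzymes of inducible metabolism rose while most members of their lists were not called. Of 28 glycolysis and hypoxia genes 5 rose (17.9%) and 1 fell (3.57%), with a median of -0.08. The shares over all genes were 10.2% and 11.7%. Slc2a6, a lysosomal hexose transporter, had 4.39 and 3.66 (16.3-fold), the glucose transporter Slc2a1 had 1.74 and 1.14, and hexokinase 2 (Hk2) had 1.67 and 0.86. Of 20 genes of arginine, itaconate, tryptophan and pterin metabolism 6 rose and 1 fell. Acod1, which makes itaconate, had 3.89 and 3.39 (12.5-fold). Slc7a2, an arginine carrier, had 3.05 and 2.72, Nos2, the inducible nitric oxide synthase, had 2.22 and 1.74, and Gch1, which starts synthesis of its cofactor, had 2.02 and 1.84. Hdc, which makes histamine, had 4.64 and 4.40 (23-fold), and Arg1, which competes for arginine, read -0.43 and -2.75 (adjusted p = 0.344).

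The lists with the largest shares of lowered members were lipid handling, the cell cycle and lysosomes. Of 23 genes of cholesterol efflux and lipid storage 13 fell and 1 rose (median -1.21, with -1.30 and -1.17 on the 2 arrays). Tmem86a, a lysoplasmalogenase gene, had -5.01 and -4.34 (25.5-fold lower, adjusted p = 0.000441). Abcg1, which exports cholesterol, had -2.66 and -1.93 (4.91-fold lower). Lpl, the lipoprotein lipase, had -2.35 and -2.05 (adjusted p = 0.0342), Lipa, the lysosomal acid lipase, had -1.92 and -2.12, and Soat1, which makes cholesteryl esters, had -2.37 and -1.17. Abca1, the other main exporter, read 1.15 and -0.67 and was not called (adjusted p = 0.751). Ch25h, which makes 25-hydroxycholesterol and is known as an interferon-stimulated gene, was the member that rose, with 4.82 and 4.43 (24.6-fold, adjusted p = 0.00512).

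Of 36 cell cycle and replication genes 15 fell and 2 rose (median -0.93, with -0.45 on replicate 1 and -0.97 on replicate 2). The D cyclins parted, Ccnd1 falling with -3.80 and -2.53 (8.96-fold, adjusted p = 0.0035) and Ccnd2 rising with 3.91 and 2.72 (9.96-fold, adjusted p = 0.00515). Cdk4, their partner kinase, had -2.11 and -1.77, and the replication licensing genes Mcm2 (-1.35 and -1.83) and Cdc6 (-2.25 and -1.67) fell. Mki67, a proliferation marker, rose with 3.24 and 1.76 (adjusted p = 0.00486), against the direction of most members.

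Of 30 lysosome and autophagy genes 12 fell and 1 rose (median -0.75). Tfeb, a transcription factor that switches on lysosome genes, had -3.59 and -1.85 (6.58-fold lower, adjusted p = 0.00699). Atp6v0d2, a subunit of the proton pump, had -2.63 and -2.96, and the cathepsins Ctsb (-1.84 and -1.53) and Ctsd (-1.73 and -1.56) fell. Sqstm1, the autophagy adaptor p62, was the member that rose (1.21 and 1.38). Of 27 genes that mark resident peritoneal macrophages 4 fell (14.8%) and 1 rose (3.70%), with a median of -0.55. The share lower was near the 11.7% of all genes, of which 10.2% rose.

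**Figure D4:**
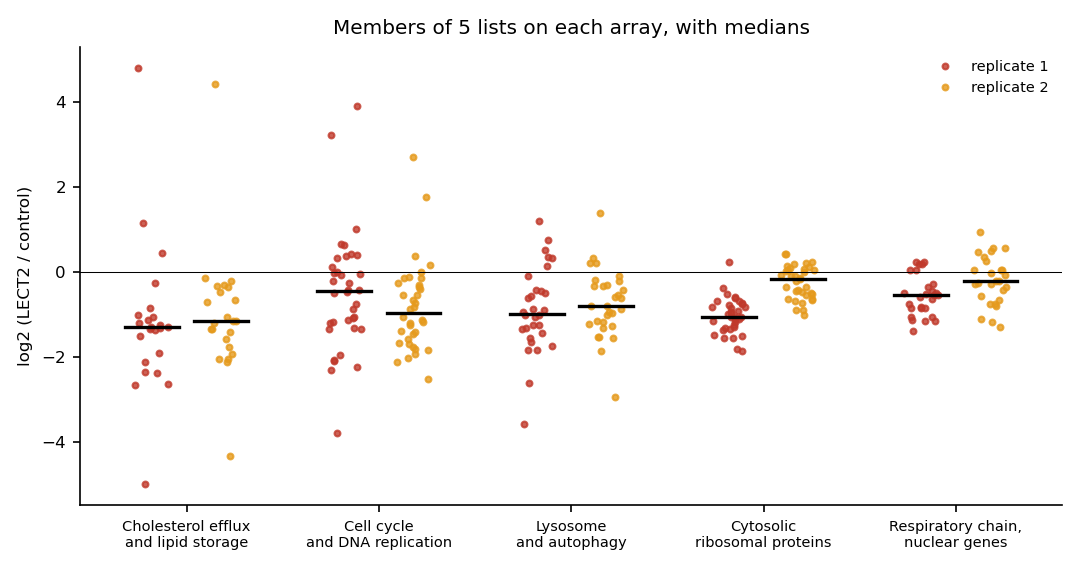
Log2 ratio of LECT2 over control of each tested member of 5 lists on replicate 1 (red) and replicate 2 (orange) at the high dose and 3.5 h, with black bars for the medians. The medians of cholesterol efflux genes lie at -1.30 and -1.17, and those of ribosomal proteins at -1.06 and -0.16.

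Genes for ribosomal proteins and the respiratory chain had lower medians on replicate 1 than on replicate 2. Of 35 ribosomal protein genes 6 fell and none rose, with medians of -1.06 on replicate 1 and -0.16 on replicate 2. Rps7 had -1.87 and -1.01, Rps6 had -1.51 and -0.90 and Rpl13 had -1.48 and -0.90. Of 27 respiratory chain genes 5 fell and none rose, with medians of -0.55 and -0.22. Sdhb was low on both arrays (-1.15 and -1.10, adjusted p = 0.00893), and Ndufv2 had -1.16 and -0.67 (adjusted p = 0.0305). Their shares lower, 17.1% and 18.5%, stood beside 11.7% of all genes. These counts depend on the scaling. For ribosomal proteins 14 fell with the table centred on column medians, 13 of 33 with matched files after loess and 33 of 33 with matched files centred on medians, and for the respiratory chain 6, 5 and 23 of 27.

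In the remaining lists, with the deposited columns, the share called ran from 15.8% (heat shock chaperones) to 34.6% (NADPH oxidase and antioxidant genes). Of all genes tested 10.2% rose and 11.7% fell. Of 25 antigen processing genes 3 rose and 1 fell, of 34 cytokine receptors 4 rose and 4 fell, and of 33 scavenger, Fc, complement and apoptotic cell receptors 2 rose and 6 fell. Of 25 cholesterol synthesis genes none rose and 4 fell, and of 19 heat shock chaperones none rose and 3 fell. Of 24 Krueppel-like factors and nuclear receptors 4 rose and 4 fell, of 26 NADPH oxidase and antioxidant genes 6 rose and 3 fell, and of 25 unfolded protein and amino acid stress genes 2 rose and 2 fell. Their medians lay between -0.35 and 0.15. With matched files centred on medians, where 8842 of 25850 genes were called lower, 14 of 19 heat shock, 14 of 25 cholesterol synthesis, 16 of 25 unfolded protein and 13 of 24 Krueppel-like genes were lower.

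The proteins named as LECT2 partners gave mixed readings. Of 22 Trem, C-type lectin and LECT2-binding receptors 5 rose (22.7%) and 7 fell (31.8%), beside 10.2% and 11.7% of all genes. Cd209a fell with -1.73 and -1.54 (3.11-fold, adjusted p = 0.0385). That call was lost with no filter (adjusted p = 0.0611), with the mean of probes (0.0508), with only the 3.5 h arrays (0.0693) and without either replicate. Met, the receptor for hepatocyte growth factor, rose with 3.30 and 2.38 (7.15-fold, adjusted p = 0.00133). Tie1 read 0.06 and -0.68 and was not called (adjusted p = 0.669), and it was above background in the LECT2 channel of neither array and in the control channel of 1. Lect2 itself did not pass the filter on dim probes.

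Further large falls came from genes outside the lists. Tifab, a relative of an NF-kB signalling adaptor, had -4.29 and -5.03 (adjusted p = 0.000692), with LECT2 above background on 1 of 2 arrays. Arl11, a small GTPase of the ARF-like family, had -4.21 and -3.71 (15.6-fold lower), Mtus1, a microtubule-associated protein, had -4.05 and -3.79, Ado, a thiol dioxygenase, had -3.91 and -3.82, and N4bp2l1 had -3.54 and -4.05. Oit3 had -4.65 and -2.72, the widest gap between arrays among the falls plotted. Kcnj10, an inward rectifier potassium channel, was at least 6.20-fold lower, and Nat8l and Cdca7l were at least 3.85-fold and 3.47-fold lower.

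Other probes of the same gene did not always follow the brightest one used here. Of 1041 called named genes with further probes, 128 had at least 1 probe on the opposite side of 0 on both arrays, and 912 of 1222 further probes were on the same side on both. The largest conflicts, named after their values were seen, were in Recql (mean 3.31 for the probe used and -2.25 for the other), Nhsl2 (-2.21 and 3.07) and Epas1 (-2.14 and 2.82). No gene named elsewhere here was among the 128, but the list counts were not cleared of such genes. With the mean of probes 5 ribosomal protein genes fell, where the brightest probe gave 6.

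The difference between high and low dose at 3.5 h was tested directly. No gene passed (0% of 26148 in either direction), with 2048 at an unadjusted p under 0.05, and limma on the matched scanner files called 8 after loess and 3 after median centring. The smallest adjusted p was that of Il19, an IL-10 family cytokine, which read 4.11 and 3.98 at the high dose and -1.50 and 0.04 at the low dose (difference 4.77, adjusted p = 0.205). Il10 read 4.69 and 5.12 at the high dose and -0.18 and 2.11 at the low dose. Met read 3.30 and 2.38 at the high dose and 0.88 and 1.46 at the low dose (difference 1.67 ± 0.39 SE, adjusted p = 0.586). For Tnf the ratios were 5.72 and 5.91 at the high dose and 5.57 and 5.6 at the low dose. The low-dose column of replicate 1, which gave the lower of the low-dose values for Il19, Il10 and Met, followed its best-matching scanner file least closely of the 8 columns (r = 0.58). A p above the threshold does not show that the doses act alike.

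The response at the high dose differed between times in 2170 genes, of which 1181 (4.52%) had a higher ratio at 48 h than at 3.5 h and 989 (3.78%) a lower one. Without replicate 1 of the 3.5 h arrays 2 genes were called and without replicate 2 none were by limma, so this count needs both arrays. It was 0 with the scanner files as recorded, where 0 genes were called at 3.5 h as well. The 48 h columns lay within 0.01 of the scanner software's ratios for 98.6 to 99.0% of probes, the 3.5 h columns for 3.31 to 11.2%, and under the matched link each time lay on its own slide, so time, slide and column making cannot be told apart.

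In the interleukin list 14 of 30 members had a lower ratio at 48 h and 2 a higher one, and 14 were not called, with list medians of 0.67 at 48 h and 3.36 at 3.5 h. Il19 had -2.35 and -2.02 at 48 h and 4.11 and 3.98 at 3.5 h (difference -6.22, adjusted p = 0.00816). Il27 had -0.68 and -0.69 at 48 h and 4.83 and 5.07 at 3.5 h. Il6 had 3.75 and 2.73 at 48 h and 4.09 and 3.44 at 3.5 h (adjusted p of the difference 0.633). In the NF-kB list 11 of 27 members had a lower ratio at 48 h and 1 a higher one. The guanylate-binding protein list went the other way, with 5 of 16 higher at 48 h, none lower, and medians of 3.65 at 48 h and 1.97 at 3.5 h. Gbp8 had 5.56 and 4.86 at 48 h and 1.13 and -1.85 at 3.5 h. Of the interferon-stimulated antiviral genes 2 of 29 were lower and 1 higher at 48 h. For Icosl the sign changed, with -2.14 and -1.72 at 48 h and 1.86 and 2.41 at 3.5 h (adjusted p of the difference 0.00816).

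**Figure D5:**
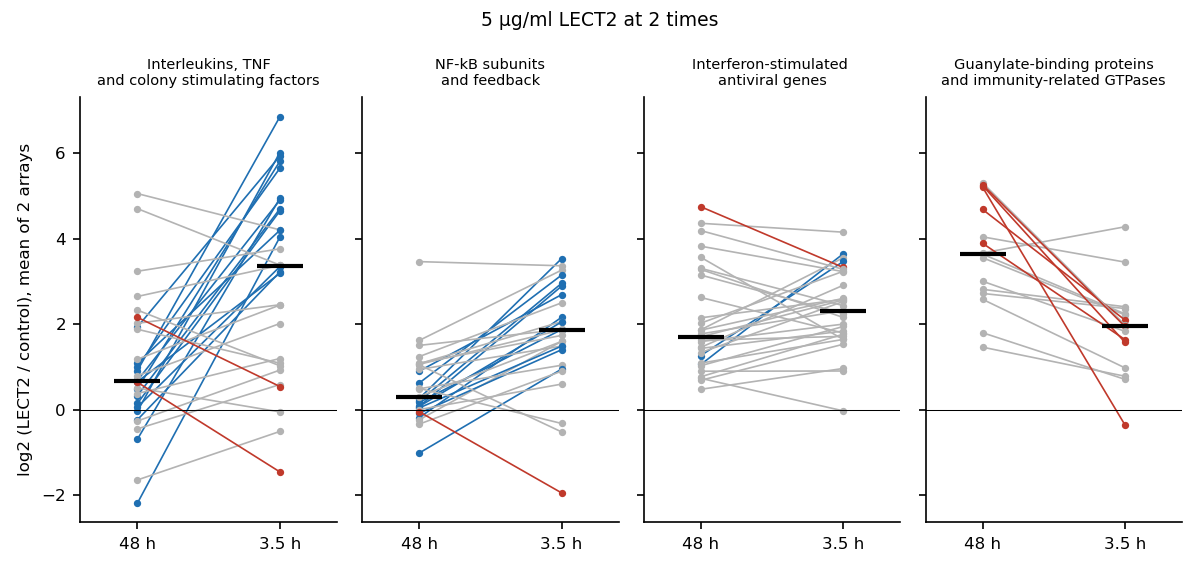
Mean log2 ratio of LECT2 over control at 48 h (left) and 3.5 h (right) for the high dose, 1 line per gene in 4 lists. Blue lines are genes with a called lower ratio at 48 h, red lines called higher, grey lines not called, and black bars are list medians. The interleukin median is 0.67 at 48 h and 3.36 at 3.5 h, and the guanylate-binding protein median is 3.65 at 48 h and 1.97 at 3.5 h.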

How the data were processed

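RNA from LECT2-treated and control macrophages was hybridised to 8 two-colour arrays, per the labels. Scanning was with Agilent Feature Extraction 10.7.3.1, per the submitters' processing notes. The deposited series table holds log2 of control over LECT2, and how the authors normalized it is not given in the sources used here. Its sign was reversed. The scanner files deposited by the authors hold median spot and background intensity, dye-normalised processed intensity and the software's log10 ratio (red over green), which served for the background filter, for matching columns to files and for alternatives (normexp with offset 50, loess). The filter kept probes that rose above background in the green or red channel of 2 or more arrays, with the brightest probe per gene. limma 3.58.1 in R 4.3.3 fitted 4 group means over 8 arrays (4 residual degrees of freedom). P-values rest on a spread pooled over the 4 groups. The fit was tested on simulated data, with 50 changed genes of each size among 26148. It called 8% of changes of 1 log2 unit, 54% of 2, 86% of 3 and 90% of 4, and 6 unchanged genes. Fewer genes were changed there than the 5724 called in the data. Named genes were the 15 largest called in each direction, up to 5 called list members in each direction, up to 3 uncalled members, the 10 largest dose and time differences in each direction, genes with an opposed probe, and Cd209a, Lect2, Met and Tie1. Some genes that this rule names are not reported here. The members and gene lists were chosen with earlier results of these data known.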

Additional observations from a re-analysis of the deposited data

Results flagged for a closer look

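The ratio at the high dose differed between 48 h and 3.5 h in 2170 genes by limma's test of the difference, and the genes with the 10 largest differences each way are given here on the log2 scale. Groups of 2 arrays were not tested for outlying samples. With a higher ratio at 48 h, Tgfbi, a secreted matrix protein, had 5.29 and 3.66 at 48 h and -1.47 and -1.40 at 3.5 h (difference 5.91, adjusted p = 0.0164). Htr7, a serotonin receptor, had 5.12 and 4.52 at 48 h and 0.41 and 0.58 at 3.5 h (difference 4.33). The serotonin receptor Htr2b had 2.55 and 3.46 at 48 h and -1.61 and -2.05 at 3.5 h (difference 4.83). The other differences in this direction were 5.57 for Gbp8, 4.98 for Mtus1, 4.61 for Tmem86a, 4.55 for Nt5e, 4.47 for Klhl38, 4.42 for Mexis and 4.27 for Mansc1. In Tmem86a the ratio was near 0 at 48 h (0.03 and -0.16).

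With a lower ratio at 48 h, Il23a, a subunit of IL-23, had 0.10 and -0.16 at 48 h and 5.97 and 6.07 at 3.5 h (difference -6.05, adjusted p = 0.00119). Mycl, a relative of Myc, had -2.70 and -2.15 at 48 h and 1.2 and 3.52 at 3.5 h (difference -4.78). Nr5a2, a nuclear receptor, had -0.86 and 0.12 at 48 h and 4.29 and 4.35 at 3.5 h (difference -4.68). The other differences in this direction were -6.22 for Il19, -5.94 for Csf3, -5.64 for Il27, -5.32 for Tnf, -5.13 for Bcl11a, -4.88 for Tmem18 and -4.64 for Lif.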

How the results depend on the processing

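The count of genes called for the high dose was 0 by limma (2865 at an unadjusted p under 0.05) with the scanner files as recorded, 11766 with the matched files centred on medians, 3169 with only the 3.5 h arrays and 901 to 2442 without either replicate. The cause of these shifts was not tested. The dose count was 8 with matched files after loess and 3 after median centring. The time count was 0 by limma with files as recorded (264 at an unadjusted p under 0.05), 4681 with matched files after loess, 940 with no filter and 0 to 2 without either replicate. Deviations between replicates correlated at 0.469 between the high and low dose at 48 h. The low dose at 3.5 h gave 0.198 and 0.166 with the high and low dose at 48 h. For the high dose at 3.5 h the correlations with the other groups lay between -0.06 and 0.044. Whether replicate numbers pair the samples was not tested further. The replicate block gave 6039 genes for the high dose, 0 for the dose and 2456 for time. With the block Arg1 (adjusted p = 0.00808), Ccl6 (0.0469), Fpr1 (0.0102), Gzmb (0.00508), Il33 (0.0152) and Tgfbi (0.0394) were called at 3.5 h and Csf1r (0.0597) was not, and the call of no other named gene changed. Of 160 called named genes, 156 of 156 with a value stayed called in the same direction with matched files after loess, 159 with the block, 143 with only the 3.5 h arrays, 81 without replicate 1 and 119 without replicate 2. With files as recorded none stayed called. The matched files were picked by how closely their ratios follow these columns, so staying called with them is no separate check.

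Signs turned with the files as recorded for Aim2 (0.13), Bst2 (-0.15), Gbp8 (1.28), Htr2b (1.2), Il19 (-0.16), Irf2 (0.056), Mansc1 (0.26), Mexis (0.66), Sdhb (0.030), Tgfbi (1.45), Tie1 (0.29), Tnfsf13b (0.067) and Zfp36 (-0.34). All 20 named time differences turned there too: Tgfbi -2.28, Gbp8 -0.56, Mtus1 -0.53, Htr2b -1.74, Tmem86a -0.52, Nt5e -1.07, Klhl38 -0.83, Mexis -1.03, Htr7 -0.51, Mansc1 -0.75, Il19 1.78, Il23a 1.48, Csf3 1.34, Il27 1.41, Tnf 0.27, Bcl11a 0.28, Tmem18 0.26, Mycl 0.89, Nr5a2 1.00 and Lif 0.46. Median centring of matched files turned Abca1 (-0.56) and Tie1 (0.41). Leaving out a replicate gave -0.67 to 1.15 for Abca1, -1.85 to 1.13 for Gbp8 and -0.68 to 0.064 for Tie1.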
